A study of Mus musculus with 4 samples.

Results

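The Mbd1 locus was described as the stretch of mouse chromosome 18 from 74000000 to 75000000 in build mm9, which holds the Mbd1 gene near 74.43 to 74.44 Mb. Its members were chosen by position: all summits that 4 FAIRE-seq libraries of the dentate gyrus have in this window of 1 Mb were taken, and those no more than 250 bp apart were merged into 1 region. This gave 30 regions of 82899 in the whole genome. FAIRE-seq, where FAIRE stands for formaldehyde-assisted isolation of regulatory elements, sequences the DNA that stays in the aqueous phase when fixed, sonicated tissue is extracted with phenol and chloroform, and this DNA is poor in nucleosomes. All mice were of the strain named C57BL6 and around 9 weeks old, with 2 libraries titled WT and 2 titled Mbd1 KO. No further treatment is named, and the labels do not say which part of Mbd1 the knockout allele lacks, whether it is absent from all cells, or whether each library came from its own animals. Any test over them therefore measures only the spread between these libraries, which may be technical.

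The labels conflict. In the genotype field WT 1 is given as Mbd1 KO, and Mbd1 KO 2 is given as WT. For WT 2 and Mbd1 KO 1 the field and the title are the same. Libraries are named by title here, results are given under both groupings, and no library was moved to another group on its data. The presence of a summit chose the members, so their presence is a description. Groups, score and rank were not used in choosing them.

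MBD1 is a nuclear protein that binds methylated CpG sites through its methyl-CpG-binding domain and also carries CXXC zinc fingers. It belongs to a family of readers of DNA methylation and is known as a repressor of transcription. In the adult hippocampus it is best known for its role in neural stem cells of the dentate gyrus, where it bears on their differentiation into neurons. The summit of a FAIRE peak is the point of highest signal in a stretch of open chromatin, and active promoters and enhancers are the usual places of such peaks. In the RefSeq table of build GRCm38, which served for gene order only, the 5 protein-coding genes on the lower side of Mbd1 were Me2, Mro, Mapk4, Ska1 and Cxxc1, and the 5 on the upper side were Cfap53, Myo5b, Acaa2, Lipg and Rpl17. Cxxc1, the immediate neighbour, encodes a protein that binds unmethylated CpG sites, and Myo5b encodes a motor protein of vesicle transport. No mm9 annotation was used, so no region was assigned to one of these genes, to an exon or to an intron.

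The region closest to Mbd1 was much stronger in the 2 libraries titled WT than in the 2 titled Mbd1 KO. It spans 74427768 to 74427823 on chromosome 18 and ends 2177 bp below the lower bound of the stated gene position. That bound is rounded to 0.01 Mb, so whether the summits lie at the start of the gene, inside it or just outside cannot be told here. Each summit carries a score, read here as −log10 of the peak's p or q value. At this region the score was 87.2 in WT 1 and 61.8 in WT 2, and it was 15.8 in Mbd1 KO 1 and 18.7 in Mbd1 KO 2. Both titled WT libraries thus lay far above both titled Mbd1 KO libraries, while the peak was still called in all 4.

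Scores of different libraries depend on depth, which is not known, so each was turned into a percentile, the share of the library's own summits with a lower score, with tied summits given their middle rank. The region stood at the 98.8th percentile of its list in WT 1 and at the 98.1st in WT 2. In Mbd1 KO 1 it stood at the 72.9th and in Mbd1 KO 2 at the 72.7th. The means were 98.5 ± 0.453 for WT and 72.8 ± 0.166 for Mbd1 KO (SD, n = 2 each), a difference of −25.7 percentile points (exact permutation p = 0.33, two-sided, the lowest value that 2 against 2 libraries can reach). The difference was thus many times the spread within either titled group, although the design cannot bring a permutation test below 0.05.

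Under the genotype field the groups overlapped at the same region. The pair with the field Mbd1 KO (WT 1 and Mbd1 KO 1) averaged 85.8 ± 18.3 and the pair with the field WT (WT 2 and Mbd1 KO 2) 85.4 ± 18.01 percentile points (SD, n = 2 each), a difference of 0.438 (exact permutation p = 0.667, two-sided). Strength at this region thus parted the libraries as the titles do and not as the genotype field does. Each field pair holds 1 library of each title, so the overlap follows from that parting and is no further observation. Which label is right was not tested. Because the deleted part of the allele is not given, it is not known whether this region lies in it.

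**Figure D1:**
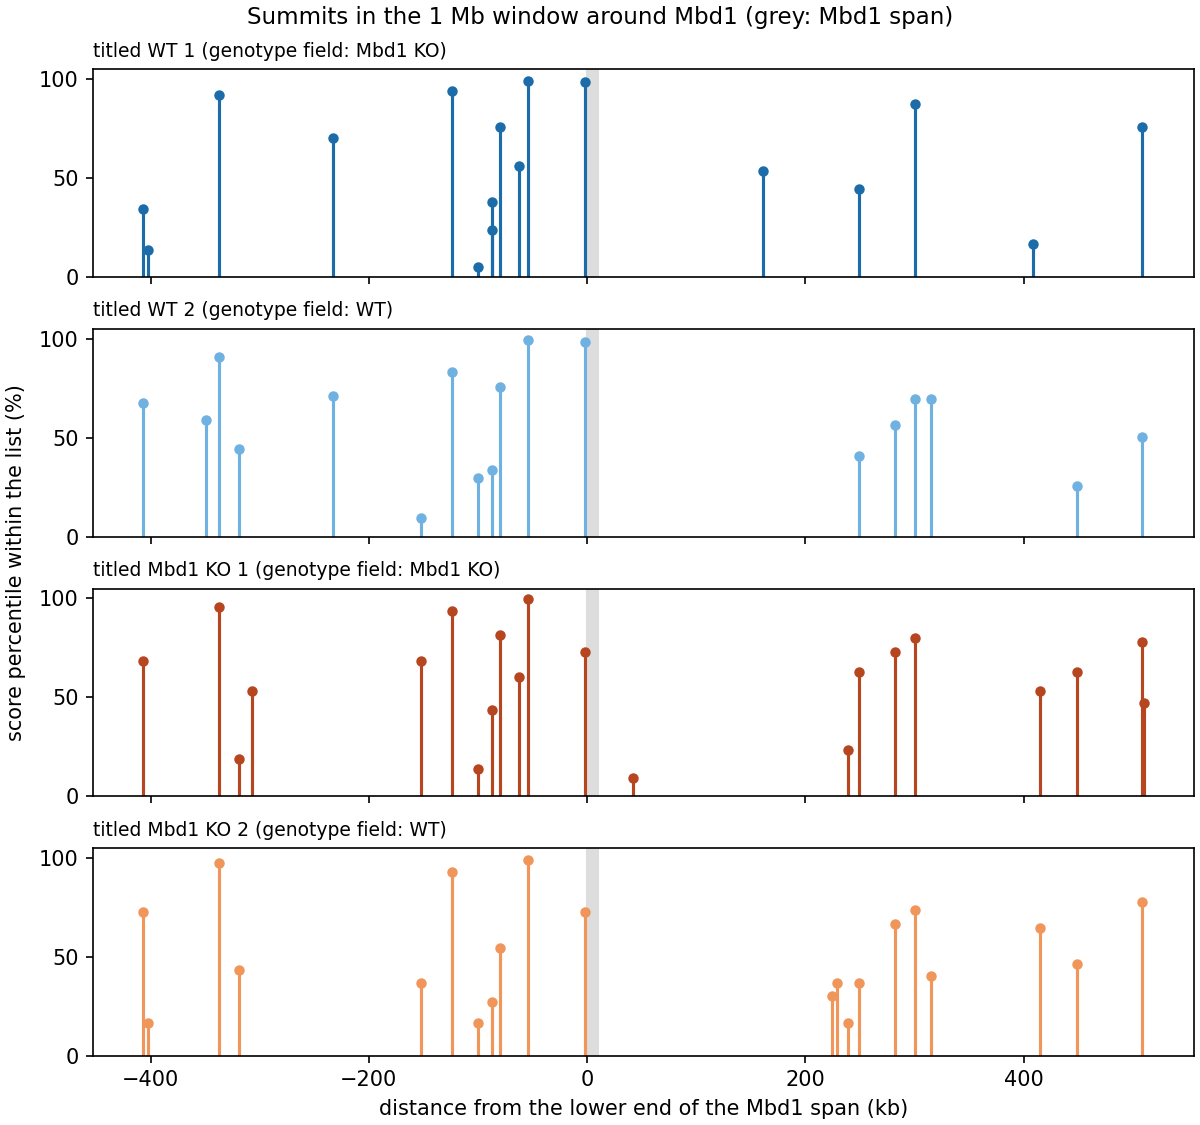
Score percentile of every summit in the window (vertical axis, percent of the library's own list) against its distance in kb from the lower end of the stated Mbd1 position (horizontal axis), with 1 panel per library and the Mbd1 position shaded grey. The region beside the shaded span stands at 98.8 and 98.1 in the libraries titled WT and at 72.9 and 72.7 in those titled Mbd1 KO, while the region 54 kb below it stays above 99 in all 4.

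Ranks, from which the percentiles derive, also put both WT libraries ahead of both Mbd1 KO libraries. Between the Mbd1 KO libraries they put Mbd1 KO 2 first, unlike the percentiles. Counted from the strongest summit of a list, the region near Mbd1 ranked 459 in WT 1 and 851 in WT 2, against 14979 in Mbd1 KO 1 and 13332 in Mbd1 KO 2. On chromosome 18 alone it ranked 7 and 23 in the WT libraries and 528 and 458 in the Mbd1 KO libraries. Among the summits of the window it was second in both WT libraries, seventh in Mbd1 KO 1 and sixth in Mbd1 KO 2. The lists titled Mbd1 KO were longer, with 56382 and 49671 summits against 38142 and 46651 for WT. Keeping the 38142 strongest summits of each list leaves these ranks as they are, and the percentile difference was then −36.1 points. The part of list length was not tested further.

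The neighbouring strong region served as a comparison within each library. It lies at 74375723 to 74375749, with 52019 bp between it and the region near Mbd1, and it was the strongest of the window in every library. Its score was 95.2 in WT 1, 83.7 in WT 2, 107.9 in Mbd1 KO 1 and 91.7 in Mbd1 KO 2, and its percentile lay between 99.2 and 99.6 in all 4. The score near Mbd1 was 91.6% and 73.8% of this neighbour's in WT 1 and WT 2. It was 14.6% and 20.4% of it in Mbd1 KO 1 and Mbd1 KO 2. The lower strength in the titled Mbd1 KO libraries was therefore not shared by the next strong region below.

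No nearby summit took the place of the weaker peak. The nearest other summit of a Mbd1 KO library lay 44103 bp above the region, and the nearest other WT summit 52033 bp away. Within the region the summit itself was at 74427823 in WT 1, 74427817 in WT 2, 74427799 in Mbd1 KO 1 and 74427768 in Mbd1 KO 2. Both Mbd1 KO summits were thus at lower positions than both WT summits, as was the case for 16.1% of the 26592 regions called in all 4 libraries. The summits of the region spanned 55 bp, against a median of 40 bp over those regions.

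Among the 26592 regions of all 4 libraries, none had as large a ratio of Mbd1 KO rank to WT rank as the one near Mbd1. The better of its Mbd1 KO ranks was 15.7 times the worse of its WT ranks. The next largest ratio in this direction was 3.65, at a region on chromosome 6 (3151492 to 3151499) that stayed above the 99th percentile in every library. In the opposite direction, with the Mbd1 KO libraries ahead, the largest ratio was 3.58. Between the pairs of the genotype field the largest ratios were 3.67 with the WT field ahead and 3.82 with the Mbd1 KO field ahead. Ranks end at the length of the list, so a region far down the WT lists cannot reach a ratio like that near Mbd1. By number of places other regions moved further. An example on chromosome 15 (44727906 to 44727951) ranked 17228 and 18791 in WT and 47074 and 40520 in Mbd1 KO. The ratio was chosen after the values near Mbd1 were seen, so the place of the Mbd1 region is a description and not a test.

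Percentiles told the same in another form. There were 426 regions at least as high as the Mbd1 region in both WT libraries, itself included. The others all stood at the 96.8th percentile or above in both Mbd1 KO libraries. Measured by the gap between the lower WT and the higher Mbd1 KO percentile, 25.2 points near Mbd1, 3 of the 26592 regions had as large a gap, and the other 2 were weaker in WT, between the 53.4th and 63.4th percentile. By the mean difference alone 41 regions (0.154%) were as far down in Mbd1 KO.

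**Figure D2:**
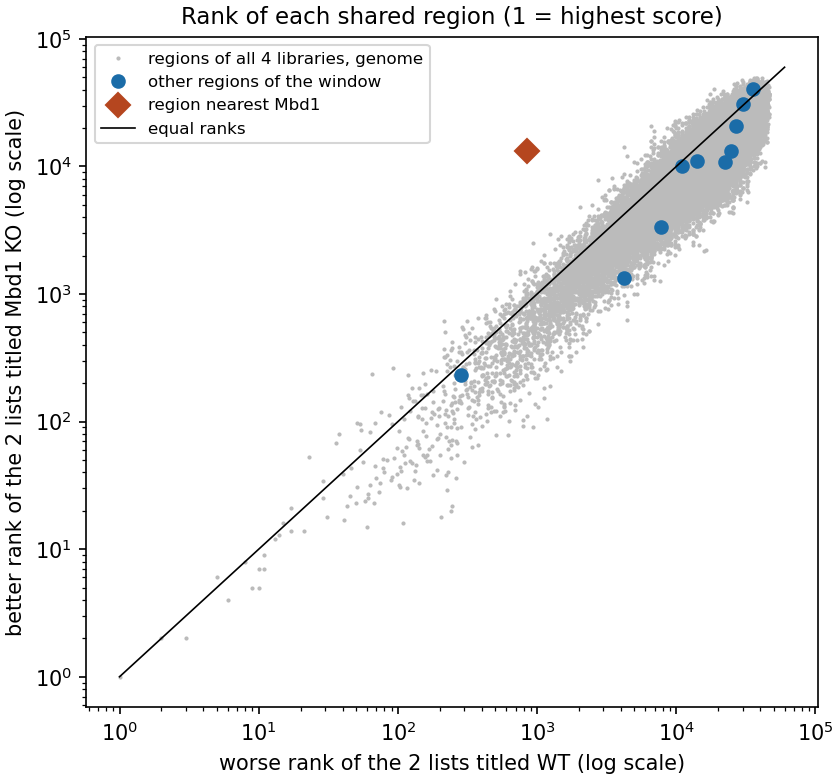
Each point is 1 region called in all 4 libraries, placed by the worse of its 2 ranks in the lists titled WT (horizontal) and the better of its 2 ranks in those titled Mbd1 KO (vertical), both on log scales with 1 as the strongest summit. The region nearest Mbd1 (diamond, at 851 and 13332) lies apart from the cloud of 26592 regions, and the 10 other shared regions of the window (large circles) lie in it.

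The window held 11 regions called in all 4 libraries, 4 called in 3, 6 called in 2 and 9 called in only 1. Regions of all 4 libraries were 36.7% of the window, near the 32.1% of all regions, and 43.4% of the 2 adjoining stretches of 1 Mb. Among the 88 stretches of 1 Mb on chromosome 18 that hold a region, the median number called in all 4 libraries was also 11. In the density of shared regions the window was thus ordinary for its chromosome. It held 17 and 18 summits in WT 1 and WT 2 and 21 in each Mbd1 KO library. Per 10000 summits of the list this was 4.46, 3.86, 3.72 and 4.23 in the same order, so the groups overlapped, with a mean of 4.16 ± 0.423 for WT and 3.98 ± 0.356 for Mbd1 KO (SD, n = 2 each). A two-sided exact permutation test gave p = 0.667.

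Against its flanks the window was slightly fuller in the Mbd1 KO libraries. The lower and upper flank held 14 and 19 summits in WT 1, 17 and 25 in WT 2, 16 and 21 in Mbd1 KO 1, and 16 and 20 in Mbd1 KO 2. The ratio of the window to the mean flank was 1.03 and 0.857 in WT 1 and WT 2 and 1.14 and 1.17 in Mbd1 KO 1 and Mbd1 KO 2. The groups did not overlap, but when summits scoring under 10 were left out the difference turned from 0.207 to −0.0633.

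Of the 11 shared regions of the window, the one near Mbd1 was the sole one whose percentiles were higher in both WT than in both Mbd1 KO libraries, a pattern found in 4.76% of all shared regions. In 3 both Mbd1 KO libraries were higher, a pattern found in 33.1% of them. The first of these 3, at 74023189 to 74023231, stood at the 34.3rd and 67.5th percentile in WT 1 and WT 2 and at the 68.2nd and 72.7th in Mbd1 KO 1 and Mbd1 KO 2. The low value of WT 1 makes most of its difference of 19.6 points, since WT 2 and Mbd1 KO 1 nearly meet. A region at 74938508 to 74938524 stood at 76.04 and 50.6 in the WT libraries and at 77.9 and 77.7 in the Mbd1 KO libraries, so that here WT 2 alone was low. A strong region at 74092697 to 74092724 stood at 92.2 and 90.8 against 95.8 and 97.3, a difference of 5.03 points, close to the median of 4.70 over all shared regions. Over the 11 regions of the window the median difference, Mbd1 KO minus WT, was 0.0213 points.

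The other strong shared regions did not part the titled groups. At 74305998 to 74306039 the percentiles were 94.02 in WT 1, 83.1 in WT 2, 93.7 in Mbd1 KO 1 and 93.2 in Mbd1 KO 2. At 74730503 to 74730570 they were 87.3, 69.3, 80.0 and 74.0 in the same order. In both WT 2 was the lowest, and the titled groups overlapped. The weakest shared region, at 74329724 to 74329864, had percentiles from 5.19 to 29.5. By the genotype field 5 of the 11 had both Mbd1 KO values higher (13.1% of all shared regions) and 1 had both WT values higher (16.6%). The 2 named here were among these 5, with differences of 5.74 and 11.98 points between the field groups, and the region near Mbd1 was not.

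**Figure D3:**
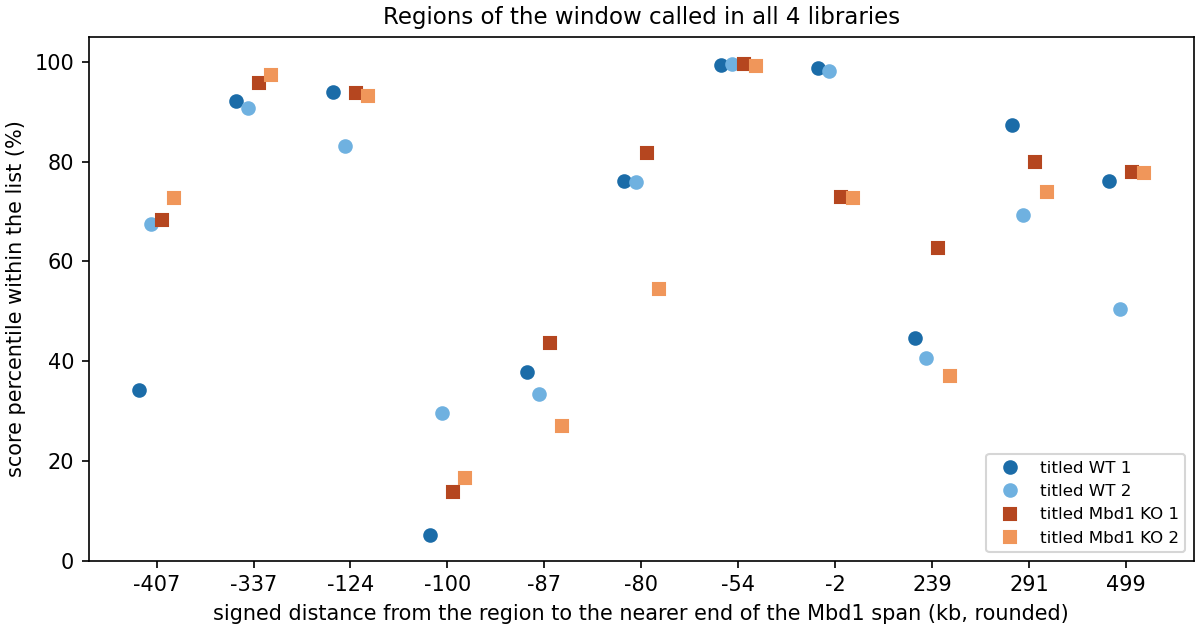
Score percentile (vertical axis, percent) of the 11 regions of the window called in all 4 libraries, in order of position, labelled by signed distance in kb to the nearer end of the Mbd1 position; circles are libraries titled WT and squares libraries titled Mbd1 KO. At −2 kb both circles stand at 98.1 or above and both squares at 72.9 or below, while at −54 kb all 4 lie between 99.2 and 99.6.

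A few regions were called in 1 titled pair alone. The region at 74196979 to 74196989 was called in both WT libraries and in neither Mbd1 KO library, as were 0.975% of all regions. Its scores were 18.03 in WT 1 and 15.9 in WT 2, at the 70.3rd and 71.1st percentile of their lists. These percentiles were close to the 72.9 and 72.7 of the Mbd1 region in the Mbd1 KO libraries. Regions at 74668711 to 74668780 and 74845062 to 74845072 had the opposite pattern, found in 4.07% of all regions. The first was weak, with scores of 4.57 and 4.85 in Mbd1 KO 1 and Mbd1 KO 2, and the second had 9.05 and 15.1. So 2 of the 30 regions (against 4.07%) were of the Mbd1 KO pair alone and 1 of 30 (against 0.975%) of the WT pair alone. Counts this small cannot be set apart from the shares over the whole genome.

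By the genotype field, 1 region of the window was called in the Mbd1 KO pair alone (1.67% of all regions) and 1 in the WT pair alone (2.63%). The first, at 74367451 to 74367480, had scores of 12.99 in WT 1 and 10.9 in Mbd1 KO 1. The second, at 74745052 to 74745066, had 15.2 in WT 2 and 8.66 in Mbd1 KO 2. Both were of moderate strength, and neither lay within 50 kb of Mbd1. On the upper side of the gene, the first summit was at 74471926, in Mbd1 KO 1 alone and with a score of 3.16, the lowest of the window in that library. The next region of all 4 libraries on that side was 251520 bp from the one near Mbd1, and no region between them was called in more than 2 libraries.

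At its edges the window began 23.2 kb before its first summit and ended 60.05 kb after its last. The nearest summits left out were 24.8 kb below it, with a score of 42.1 in WT 1, and 10.2 kb above it, with a score of 3.61 in Mbd1 KO 1.

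Together the window and its flanks held a larger share of regions lower in the titled Mbd1 KO libraries than the whole genome did. Most of these regions lay in the flanks. In the window and its flanks together, 5 of 83 regions (6.02%) were called in both WT and neither Mbd1 KO library, against 0.975% of all regions. Of these 5 the window held 1 and the flanks 4, with 3 in the upper flank. The opposite pattern was found in 4 of 83 (4.82%), against 4.07%. When the genome was cut into 885 stretches of 3 Mb, 7, this one included, held 5 or more regions of the WT pair alone. The median was 1 and the highest count 12. Shared regions with both WT percentiles higher numbered 6 or more in 14 stretches, this one included. Of the 34 shared regions in these 3 Mb, 6 (17.6%) had both WT percentiles higher, against 4.76% of all shared regions, and 8 (23.5%) had both Mbd1 KO percentiles higher, against 33.1%. By the genotype field 3 of 83 regions (3.61%, against 2.63% of all regions) were of the WT pair alone and 1 of 83 (1.20%, against 1.67%) of the Mbd1 KO pair alone. Of the 34 shared regions 7 (20.6%, against 13.1%) had both Mbd1 KO values of the field higher and 3 (8.82%, against 16.6%) both WT values. Counts by the field, like those by the titles, are small, and no departure from the genome is read from them. The region near Mbd1 is the sole one in the window among the 6 of 34 with both titled WT percentiles higher. The flanks held the other 5, with 3 in the upper flank. Neighbouring regions are not independent, and these counts were made after the region near Mbd1 had been seen, so no test is given.

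Both patterns were also counted by distance from Mbd1. Within 1 Mb of Mbd1, 3 of 61 regions (4.92%) were of the WT pair alone, from 1 to 2 Mb 3 of 39 (7.69%), from 2 to 5 Mb 3 of 194 (1.55%) from 5 to 10 Mb 2 of 338 (0.592%) and from 10 to 20 Mb 5 of 628 (0.796%). Beyond 20 Mb on the same chromosome it was 17 of 1755 (0.969%). Regions of the Mbd1 KO pair alone were 4 of 61 (6.56%), 0 of 39, 5 of 194 (2.58%), 11 of 338 (3.25%) and 28 of 628 (4.46%) in the same 5 steps, and 97 of 1755 (5.53%) beyond 20 Mb. Within 1 Mb both patterns thus stood above their shares of all regions (0.975% and 4.07%). Shared regions with both WT percentiles higher were 3 of 25 (12.0%), 3 of 9 (33.3%), 5 of 69 (7.25%), 5 of 131 (3.82%) and 4 of 175 (2.29%) in the same steps, and 24 of 546 (4.40%) beyond 20 Mb. Those with both Mbd1 KO percentiles higher were 5 of 25 (20%), 3 of 9 (33.3%), 20 of 69 (29.0%), 39 of 131 (29.8%) and 69 of 175 (39.4%). Beyond 20 Mb they were 192 of 546 (35.2%), against 33.1% of all shared regions. By the genotype field, both Mbd1 KO values were higher in 6 of 25 (24.0%) within 1 Mb, against 13.1% of all shared regions. In the later steps this share ran from 9.34% to 13.0%. Both WT values of the field were higher in 12.0% within 1 Mb, against 16.6%. Regions of 1 field pair alone were 3.28% for WT and 1.64% for Mbd1 KO there, against 2.63% and 1.67%. The second step holds 9 shared regions. By the titles, the shares with WT higher did not fall steadily with distance, being 33.3% in that step and 4.40% beyond 20 Mb. The region near Mbd1 is itself among the 3 of 25 with both titled WT percentiles higher within 1 Mb. The counts near Mbd1 are small, and a change of 1 or 2 regions would alter each share.

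**Figure D4:**
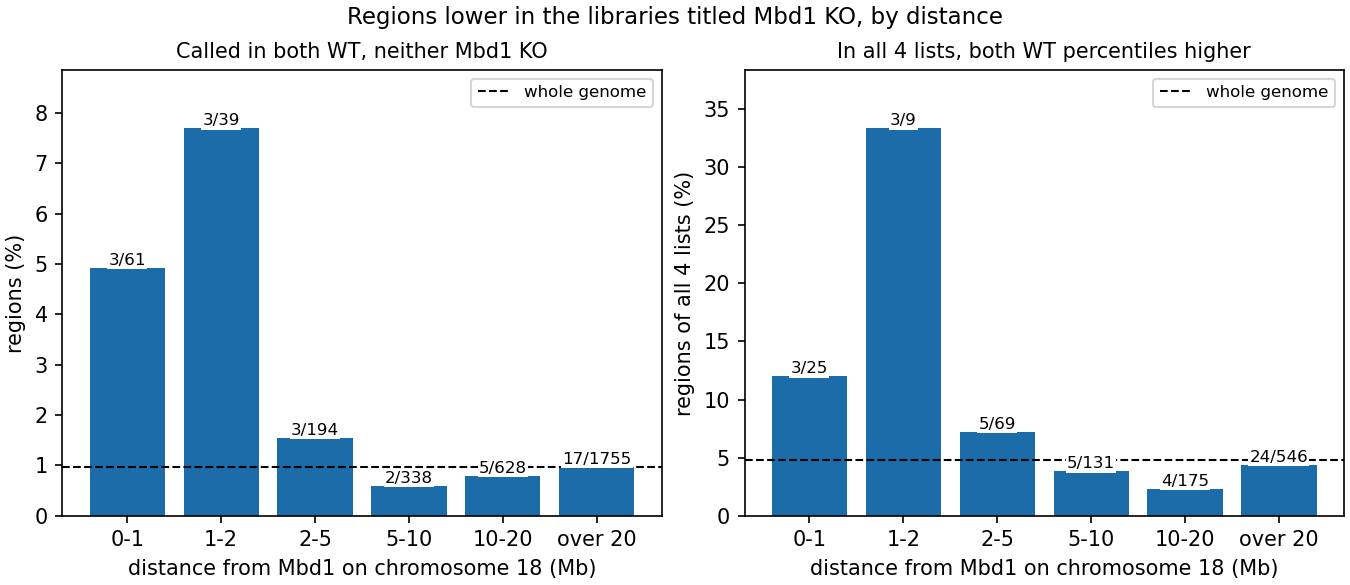
Share of regions (left) called in both libraries titled WT and neither titled Mbd1 KO, and share of regions of all 4 libraries (right) with both WT percentiles above both Mbd1 KO percentiles, by distance from Mbd1 along chromosome 18 in Mb. Numbers above the bars give the count and the total, and dashed lines mark the whole genome (0.975% and 4.76%). The bars up to 5 Mb stand above the lines, and those past 5 Mb lie below them. Past 20 Mb the left bar (0.969%) nearly meets its line.

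Of the flanking regions with both WT percentiles higher, the one with the largest ratio of ranks lay in the upper flank. At 75160086 to 75160139, 0.73 Mb from Mbd1, the scores were 34.7 in WT 1 and 34.1 in WT 2 against 16.5 in Mbd1 KO 1 and 12.4 in Mbd1 KO 2. Its percentiles were 88.8 and 91.8 in WT and 74.3 and 56.8 in Mbd1 KO. The ratio of its better Mbd1 KO rank to its worse WT rank was 3.37, the third largest of the 26592 shared regions in that direction. A region close by, at 75165440 to 75165458, stood at 95.4 and 95.6 in WT and at 91.4 and 84.1 in Mbd1 KO. Some neighbours went the other way: at 75189899 to 75189952 the percentiles were 44.6 and 50.6 in WT and 83.5 and 82.6 in Mbd1 KO, a difference of 35.5 points. The flanks thus held shared regions displaced in both directions, and the displacement was not uniform along the chromosome.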

How the data were processed

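The data were 4 deposited lists of peak summits, 1 per library, so the authors did not pool libraries in them. Reads were single, 50 bp long, per the labels' protocols. The submitters' processing notes list Bowtie, SAMtools and MACS2, with no version, and the build mm9. The peak threshold, the filters on reads and the use of an input control were not given in the sources used here. Scores deposited by the authors were read as −log10 of a p or q value, since every value lies above 1.30, the −log10 of 0.05. Depth and peak width are unknown, so no counting interval was computed.

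Summits within 250 bp were joined. The score of a region is that of its strongest summit in a library. Percentiles are mid-rank shares of the whole list. Groups came from the titles, and exact two-sided permutation tests compared single values over libraries. Named regions were those within 50 kb of Mbd1, those of 1 pair alone, the 5 with the highest lowest percentile, and the 3 with the largest difference each way among those without overlap; other regions were named after their values were seen. The members, lists and measures were chosen with earlier results of these data known. Alternatives were the genotype field, a score of at least 10, equal list length, joining within 100 or 1000 bp, percentiles within chromosome 18, flanks of 2 Mb, the inner 500 kb, a replicate block and dropping 1 library at a time. The code that joins and counts regions was tested on simulated data. A check of the allele, of gene parts and of sequence was not made, because no mm9 genome or annotation was used. The software was scipy 1.17.1, pandas 2.3.3 and numpy 2.4.6 under Python 3.11.15.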

Additional observations from a re-analysis of the deposited data

How the results depend on the processing

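The percentile difference at the region near Mbd1 kept its direction under every alternative that kept the titled groups: it was −54.7 at a score of at least 10, −36.1 at equal list length, −25.3 with percentiles within chromosome 18, −25.7 with either other joining distance, and from −26.0 to −25.4 when any 1 library was dropped. With the groups of the genotype field it was 0.438. Most of the outcomes under the titles were fixed beforehand. Both WT percentiles lay above both Mbd1 KO percentiles, so dropping 1 library could not turn the direction. The summits of the region spanned 55 bp with no other near, so either joining distance returned the same region. Leaving out weak summits keeps the ranks and shortens the lists, which widens such a difference by construction. Each permutation p with the titled groups was 0.33, the lowest possible. With a replicate block, which takes same-numbered libraries as pairs, the difference was −25.7 (exact sign-flip permutation p = 0.5, the lowest that 2 pairs allow), and the difference in summits per 10000 was −0.182 (p = 1). What a replicate number stands for is not stated, and deviations of same-numbered libraries correlated at 0.0129 over 26592 regions.

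The difference in summits per 10000 had no stable direction: it turned from −0.182 to 0.0477 with the genotype field and 0.131 at equal list length, and ran from −0.481 to 0.118 with 1 library left out (0.118 without WT 1 and 0.0701 without Mbd1 KO 1). The window to flank difference of 0.207 became 0.0708 with the genotype field and −0.0633 at a score of at least 10, and ran from 0.121 to 0.294 with 1 library left out. The causes were not tested. Regions of all 4 libraries numbered 6 at a score of at least 10 and from 11 to 15 with 1 library left out. Regions of the Mbd1 KO pair alone numbered 1 with the genotype field, 0 at a score of at least 10, 1 in the inner 500 kb and from 2 to 6 with 1 library left out. Regions of the WT pair alone numbered 2 at equal list length, 0 in the inner 500 kb and from 1 to 4 with 1 library left out. Asking for fewer libraries, or a smaller window, changes such counts by construction. The median difference over shared regions was 5.74 with the genotype field, −2.58 at a score of at least 10 and −2.40 at equal list length. It ran from −0.768 to 5.73 with 1 library left out. With 2 libraries against 2 no permutation p can pass 0.05, and unknown depth limits every comparison of scores.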
